A study of Mus musculus with 4 samples.

Results

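The genes described here are those that build, shape and copy the mitochondrion: the Timm and Tomm protein import genes, the genes of mitochondrial fusion and fission, the cristae and prohibitin genes, the matrix proteases Lonp1 and Clpp, and the genes that copy and transcribe mitochondrial DNA. They were chosen by name. Every row of the table whose symbol began with Timm or Tomm followed by a digit was taken, which gave 14 Timm and 10 Tomm genes. A further 17 names were looked up, and 16 of them were rows of the table. The members were therefore 40 of 23420 genes. Mief1 was not matched by its symbol, and RefSeq gives Smcr7l as an older name of it. The row Smcr7l is given beside the fission genes and is not counted as a member. Reads were found for 39 members in at least 1 library, and 38 passed the filter of a mean of at least 10 normalized counts, which 13287 genes of the table passed. Timm8a2 had 1 read in control 3-12 and none elsewhere, and Tomm20l had 0 reads in all 4 libraries.

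RNA was taken from the soleus, a slow hind limb muscle, of 4 mice on the C57BL/6 background aged 10 weeks. The muHuR-KO mice 1-9 and 3-9 were labelled MyoDCre+ and the control mice 3-8 and 3-12 MyoDCre-, with LoxP-/- written for all 4. In the study's account, the mice carry Elavl1 alleles with a floxed second exon, and the Cre is driven by the MyoD promoter, which is active in muscle progenitors from the embryo onwards. Cells of the muscle that never expressed MyoD therefore keep Elavl1, and the knockout precedes the formation of the muscle. Elavl1, which encodes the RNA-binding protein HuR, had 1350 normalized counts in control 3-8, 1190.1 in control 3-12, 1209.7 in muHuR-KO 1-9 and 1205 in 3-9. The log2 difference of muHuR-KO from both controls was -0.07 ± 0.25 (standard error, adjusted p = 0.9999 from limma). The second exon of the longest protein-coding transcript of Elavl1 holds 188 of 5743 bases, and the count covers the whole gene, so it checks the genotype of no library. All 10 skeletal muscle markers looked up were measured, with Acta1, Ckm and Myh7 among them, and their sum ran from 2470427 to 3492969 in the controls and from 2297147 to 2700667 in muHuR-KO.

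As background, nearly all mitochondrial proteins are made in the cytosol and imported. The TOM complex is the entry gate of the outer membrane, the TIM23 complex and its motor carry proteins into or across the inner membrane, and the small TIM chaperones pass carrier proteins to the TIM22 complex. Mitofusins and Opa1 fuse the outer and inner membranes, and Dnm1l, recruited by Fis1 and Mff, divides the organelle. In skeletal muscle, an endurance tissue in the case of the soleus, these genes are often read as measures of mitochondrial content and turnover.

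The deposited values were read counts divided by a size factor for each library, called normalized counts here. The library totals were 25767295 and 13301715 reads in controls 3-8 and 3-12, and 30362871 and 33348893 reads in muHuR-KO 1-9 and 3-9. Every difference is on the log2 scale of the normalized count plus 1, was fitted with limma over all 13287 genes and is given with its standard error. A call is an adjusted p (Benjamini-Hochberg over all 13287 genes) under 0.05. Control 3-8 stood apart from the other 3 libraries, with 1649 genes called lower and 47 called higher in it. Each comparison is for this reason given over both controls and then against each control on its own. In the latter fits a single control has no spread of its own, and that of the muHuR-KO pair stood in for it. Even in simulated counts, these fits called unchanged genes more often than the threshold allows. In whole muscle, fewer cells of a type and less RNA per cell cannot be told apart.

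Per length of exon, the 38 tested members spanned a 77.3-fold range of levels. Mfn2, the main mitofusin of muscle, was the highest with a mean RPKM (reads per kb of exon, scaled to the library total) of 139 (113 to 162 over the 4 libraries). It was followed by Timm23, the channel of the TIM23 complex, with a mean level of 125, by Chchd3, a cristae organizing protein, with 118, and by the small TIM gene Timm8b with 112. Tfb1m, a methyltransferase of mitochondrial ribosomal RNA, was the lowest with a mean level of 1.79 (1.69 to 1.85). The median level of the members was 20.7. The order of single genes was loose: of 37 neighbouring pairs in it, 33 overlapped over the 4 libraries. The 4 gaps without overlap lay below Timm8b, Timm17a, Polrmt and Timm9. By this measure the 4 highest members were set apart from the rest. So was Tfb1m at the low end, below the group of Timm10b, Polg and Timm9 with mean levels of 3.77, 3.14 and 2.92. The length used was that of all annotated exons of a gene together. It was 11353 bases for Immt, whose longest transcript has 3476, and 5194 bases for Mfn2, whose longest transcript has 4341. The place of Mfn2 at the top and the gap below Timm8b depend on this choice of length.

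**Figure D1:**
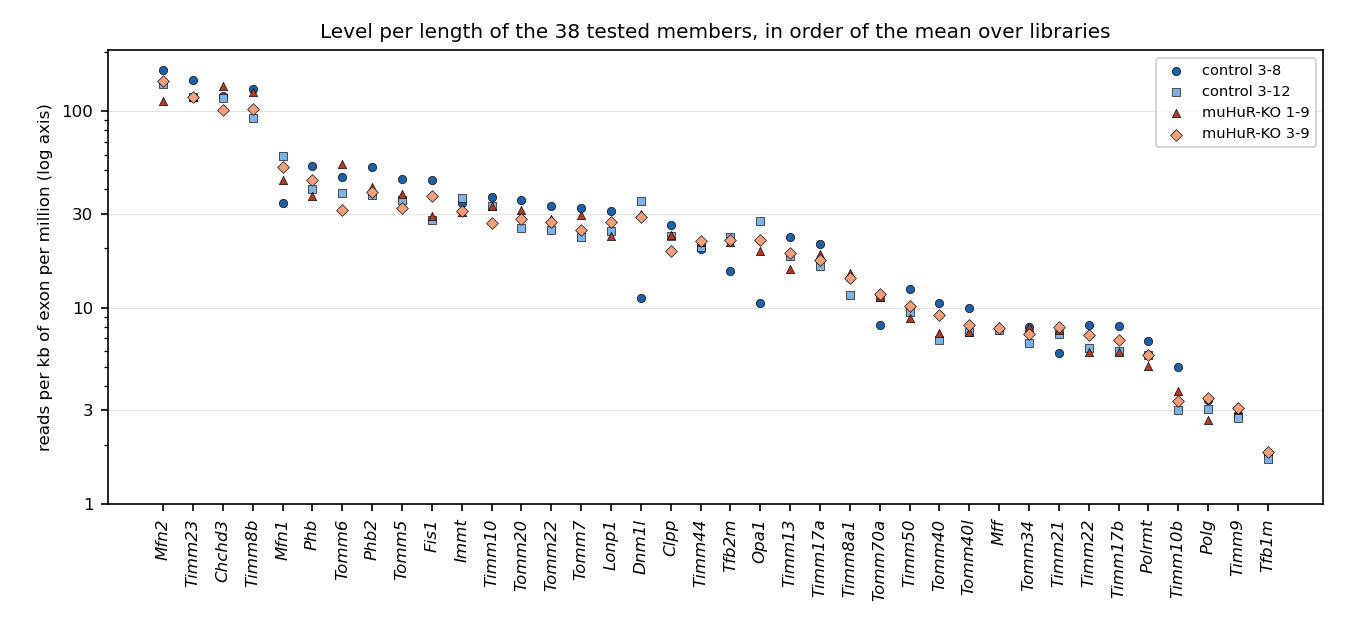
Level of each of the 38 tested members in each library, in RPKM on a log axis, ordered by the mean of the 4 libraries. Mfn2, Timm23, Chchd3 and Timm8b stand above the rest, from 112 to 139 on average, and control 3-8 is far below the other libraries for Dnm1l and Opa1.

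Over both controls, no member was called in muHuR-KO muscle. At an adjusted p under 0.05 the limma fit called 0 of 38 members, as it called 0 of 13287 genes (0%). At an unadjusted p under 0.05 it called 0 members and 102 genes (0.768%). By edgeR and DESeq2 on the recovered reads, 0 members and 0 genes were called as well. Of the 38 members, 30 had a lower and 8 a higher mean in muHuR-KO, and their median log2 difference was -0.15, where all tested genes had a median of -0.01. The differences ran from -0.35 for Timm13 to 0.46 for Dnm1l.

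The values themselves show how the libraries were ordered. Control 3-8 held the highest value of the 4 libraries in 27 of 38 members (71.1%), and 37.5% of all tested genes had their highest value in it. It held the lowest value in 6 members (15.8%, and 34.9% of all tested genes). These 6 were Timm21, Tomm70a, Dnm1l, Mfn1, Opa1 and Tfb2m. Both muHuR-KO libraries lay between the controls in 15 members (39.5%, and 33.1% of all tested genes). They lay below both controls in 7 members (18.4%, and 13.0% of all tested genes), which were Timm10, Timm23, Tomm5, Immt, Mff, Clpp and Polrmt. They lay above both controls in 0 members, against 9.57% of all tested genes. The controls were further from each other than the muHuR-KO libraries were in 30 of 38 members (78.9%, and 68.2% of all tested genes). The median distance between the controls was 0.41 on the log2 scale over the members, and that between the muHuR-KO libraries was 0.18.

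**Figure D2:**
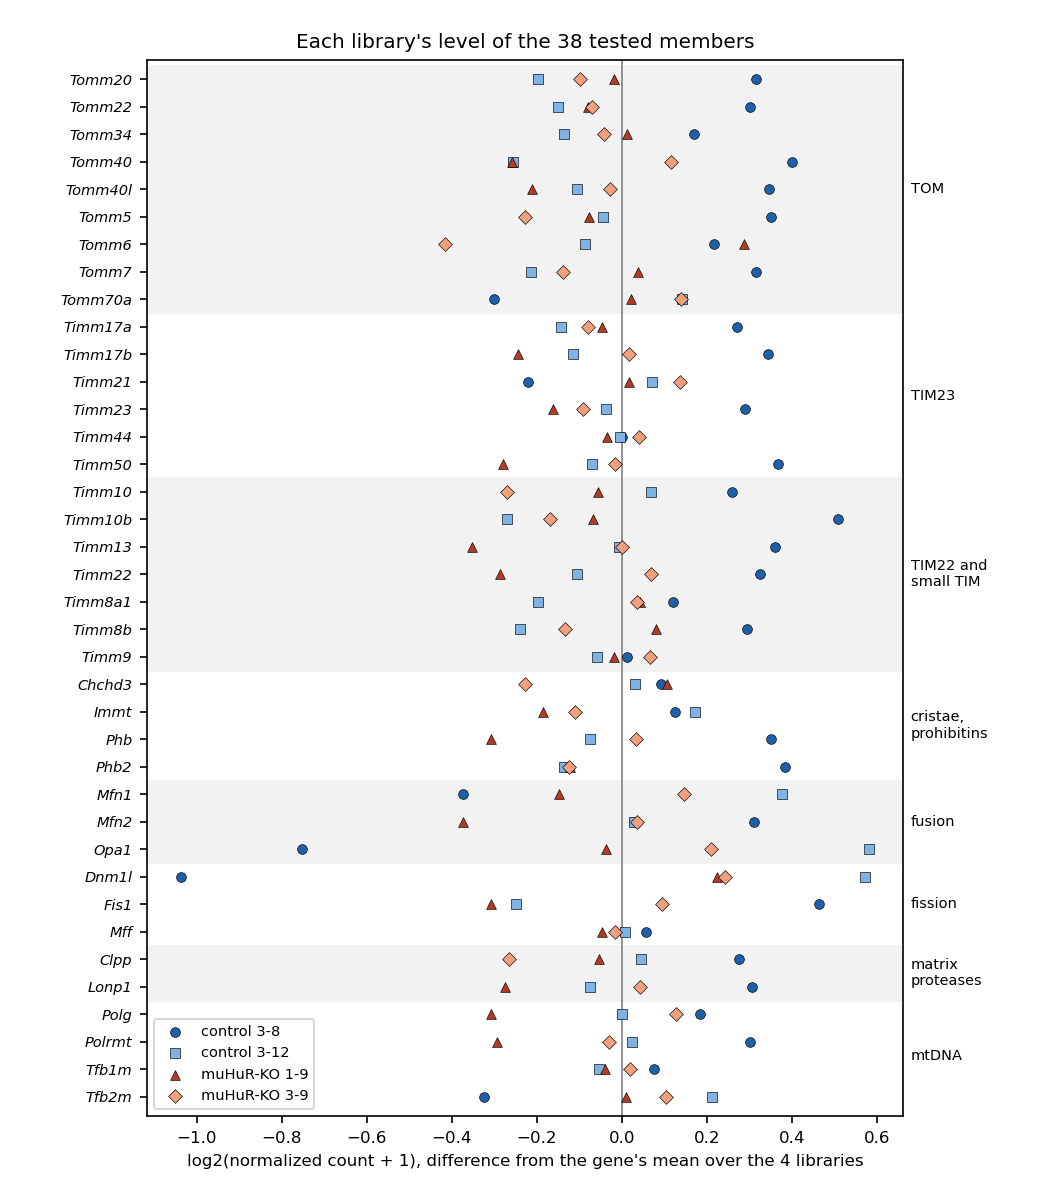
Each point is 1 library's log2(normalized count + 1) for a member, as the difference from that gene's mean over the 4 libraries, with the members grouped by role. Control 3-8 (dark blue circles) is the rightmost point in 27 of 38 members and the leftmost in 6, of which Dnm1l and Opa1 lie furthest out.

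Before any correction for base composition, the only members with calls were a fission and a fusion gene. Dnm1l (ENSMUSG00000022789.15, chromosome 16 of GRCm38 from 16312230 to 16358959, minus strand) encodes Drp1, the dynamin that constricts and cuts mitochondria. It had 1463 normalized counts in control 3-8, 4459 in control 3-12, 3502 in muHuR-KO 1-9 and 3545 in 3-9. Both muHuR-KO libraries lay close together between 2 controls that were 3.05-fold apart. Against control 3-8 the difference was 1.27 ± 0.21 (adjusted p = 0.00869 from limma), a 2.41-fold higher level in both of 2 muHuR-KO libraries. Against control 3-12 it was -0.34 ± 0.21 (adjusted p = 0.9998 from limma), and over both controls it was 0.46 ± 0.48 (adjusted p = 0.9999 from limma). Control 3-8 was lower than the other 3 libraries by 1.38 ± 0.21 on the log2 scale (adjusted p = 0.00339 from limma, lower than 3 of 3 libraries).

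Opa1 (ENSMUSG00000038084.16, chromosome 16 of GRCm38 from 29579334 to 29654884, plus strand) encodes the dynamin that fuses inner membranes and keeps cristae narrow. Its normalized counts were 2100.45 in control 3-8, 5288 in control 3-12, 3449.7 in muHuR-KO 1-9 and 4092 in 3-9. The muHuR-KO values again lay between the controls, which were 2.52-fold apart. Opa1 was higher in muHuR-KO than in control 3-8 by 0.84 ± 0.22 (adjusted p = 0.0416 from limma), which is 1.79-fold and held for 2 of 2 libraries. The difference from control 3-12 was -0.49 ± 0.22, at an adjusted p of 0.9998 and an unadjusted p of 0.0493 from limma. Over both controls the difference was 0.17 ± 0.43 (adjusted p = 0.9999 from limma). Control 3-8 was below the other 3 libraries by 1.003 ± 0.24 (adjusted p = 0.0230 from limma).

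Dnm1l and Opa1 were thus the 2 of 38 members called higher against control 3-8, where 9.69% of all tested genes were called higher, and 0 members were called lower, where 0.128% of all tested genes were. The same 2 genes were the members called lower in control 3-8 than in the other 3 libraries, where 12.4% of all tested genes were, and 0 members were called higher in it, where 0.354% were. These comparisons share control 3-8. Against control 3-12, 0 members and 0 genes (0%) were called, with 1 member, Opa1, lower at an unadjusted p under 0.05 (2.27% of all tested genes). edgeR and DESeq2 called 0 members there too, and 1 and 9 genes. After a correction of each library for the GC content of transcripts, the difference from control 3-8 was 0.50 for Dnm1l (adjusted p = 0.236 from limma) and 0.33 for Opa1 (adjusted p = 0.513 from limma), so neither call held. With a correction for gene length the differences were 1.14 and 0.51 (adjusted p = 0.0721 and 0.224 from limma), again without a call. Without the filter on low values or without a trend in the variance, both differences stayed at 1.27 and 0.84 by construction, and the adjusted p rose above 0.05. Both calls held with edgeR and DESeq2.

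Mfn1, the other outer membrane mitofusin, had 5265 normalized counts in control 3-8, 8844 in control 3-12, 6151 in muHuR-KO 1-9 and 7545 in 3-9. As with Opa1, both muHuR-KO libraries lay between the controls. The difference was 0.37 ± 0.23 from control 3-8 (adjusted p = 0.363 from limma) and -0.38 ± 0.23 from control 3-12. Mfn2 (ENSMUSG00000029020.13, chromosome 4 of GRCm38 from 147873599 to 147904704, minus strand), which also tethers mitochondria to the endoplasmic reticulum, was by contrast highest in control 3-8. Its normalized counts were 21190.1 in control 3-8, 17422 in control 3-12, 13193 in muHuR-KO 1-9 and 17515 in 3-9, so muHuR-KO 3-9 overlapped with control 3-12. The difference of muHuR-KO was -0.34 ± 0.29 over both controls, the smallest unadjusted p among the fusion genes (0.279, adjusted p = 0.9999, limma). Within a library, the ratio of Mfn1 to Mfn2 counts was 0.248 in control 3-8 and 0.508, 0.466 and 0.431 in control 3-12, muHuR-KO 1-9 and muHuR-KO 3-9. Control 3-8 alone thus held a low share of Mfn1.

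Fis1, an outer membrane protein that takes part in fission, had 1926 normalized counts in control 3-8, 1175 in control 3-12, 1128 in muHuR-KO 1-9 and 1492 in 3-9. Its difference from control 3-8 was -0.57 ± 0.24 (adjusted p = 0.201 from limma) and that from control 3-12 was 0.14. Mff, the main receptor for Drp1, was nearly level, with 1907 and 1843 normalized counts in the controls 3-8 and 3-12 and 1774 and 1812 in muHuR-KO 1-9 and 3-9. Its highest value was 1.08 times its lowest, and muHuR-KO lay below both controls by -0.06 ± 0.25 (adjusted p = 0.9999 from limma). The ratio of Dnm1l to Mff was 0.767 in control 3-8 and 2.42, 1.97 and 1.96 in the other 3 libraries in the same order, so Dnm1l varied between libraries far more than Mff. Smcr7l, the row for the Drp1 receptor Mief1, was between 675 in muHuR-KO 1-9 and 801 in control 3-8, with a difference of -0.08 ± 0.26 over both controls.

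**Figure D3:**
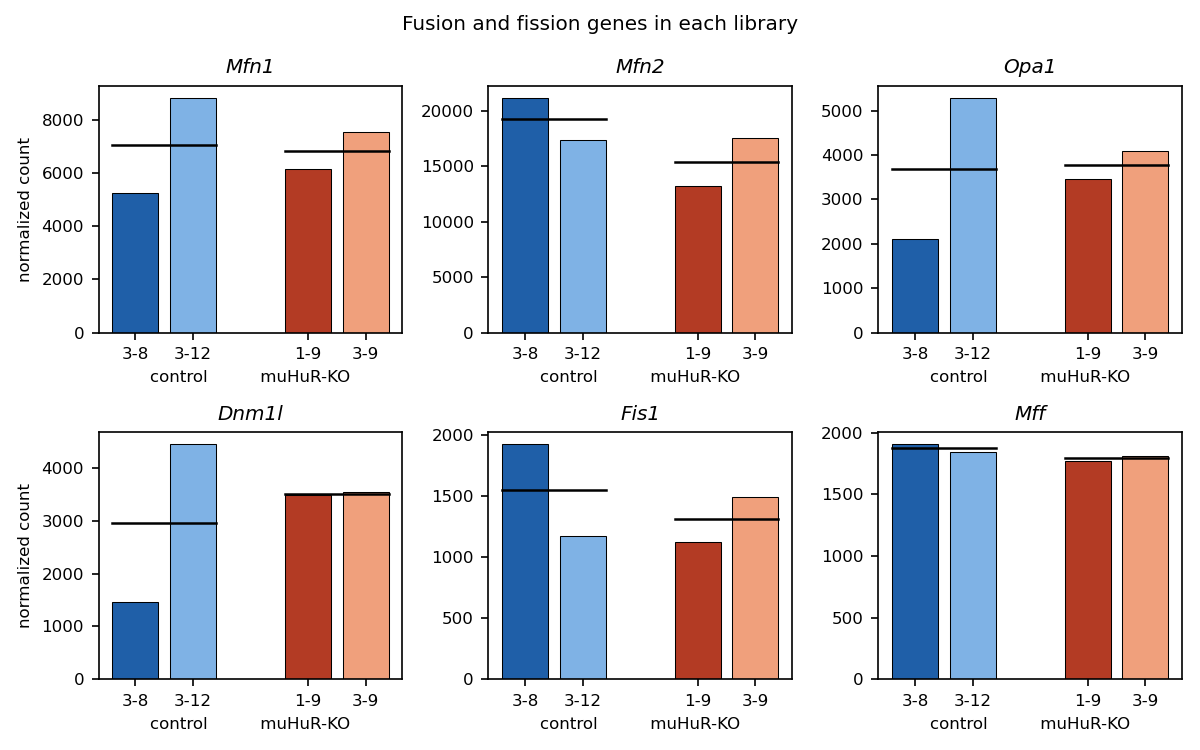
Normalized counts of 6 fusion and fission genes, 1 bar per library with axes that start at 0, and black lines at the mean of each pair. For Opa1 and Dnm1l both muHuR-KO bars lie between the bars of control 3-8 (2100.45 and 1463) and control 3-12 (5288 and 4459).

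The sequences below show what HuR and the regulators of mitochondrial genes could read in these transcripts and promoters. HuR is known to bind uridine-rich and AU-rich stretches in RNA, of which the pentamer ATTTA (in DNA letters, transcript strand) is a core. The 3' UTR windows come from GENCODE M21 transcripts on GRCm38, are 30 bases long and are written 5' to 3' in the direction of the transcript, with ATTTA in capitals. They are shown for the 2 called members and, for comparison, for both mitofusins and for Immt and Timm10b. They lie at chr16:29654237-29654266 on the plus strand (Opa1), chr16:16313608-16313637 on the minus strand (Dnm1l), chr3:32579111-32579140 on the plus strand (Mfn1), chr4:147873799-147873828 on the minus strand (Mfn2), chr6:71875059-71875088 on the plus strand (Immt) and chr7:105642721-105642750 on the plus strand (Timm10b).
Opa1: tgtATTTATTTAtttcagatgtATTTAtct
Dnm1l: taatgcatgcactATTTAtatagactgacc
Mfn1: tgATTTActgtgtatgtttacagtATTTAt
Mfn2: taagtaaagattcATTTAtgccaccaggga
Immt: taacacctgttgcATTTAccgtccttacac
Timm10b: tATTTATTTATTTATTTATTTATTTATTTA

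Opa1 held 9 ATTTA pentamers in a 3' UTR of 3141 bases, Dnm1l 4 in 1754, Mfn1 4 in 2098, Mfn2 3 in 1790, Immt 1 in 314 and Timm10b 11 in 2433. The largest number among the members was 11, in Timm10b, Tomm20 and Timm17a. Whether the number of pentamers goes with the difference of muHuR-KO was not tested. At least 1 pentamer was found in 25 of 38 members (65.8%), and in 70.3% of 12136 tested genes with a 3' UTR. Per kb of 3' UTR there were 1.80 pentamers in the members and 1.81 in all of these genes. The members were thus near the average in this respect.

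Promoter sequences were taken from RefSeq (GRCm38.p6, 250 bases before to 50 after each start site), which matched 37 of 40 members. The 100 bases before the start site are shown for Opa1 (chr16:29579234-29579333, plus strand), Dnm1l (chr16:16359032-16359131, minus strand) and Mfn1 (chr3:32529382-32529481, plus strand). These 3 were the fusion and fission genes among the members lowest in control 3-8. The others, Timm21, Tomm70a and Tfb2m, are not shown. Dnm1l has another start site, whose window is not shown. Capitals mark matches to the motif letters of nuclear respiratory factors.
Opa1: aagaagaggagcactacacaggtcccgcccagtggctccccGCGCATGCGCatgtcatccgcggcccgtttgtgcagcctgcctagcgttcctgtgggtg
Dnm1l: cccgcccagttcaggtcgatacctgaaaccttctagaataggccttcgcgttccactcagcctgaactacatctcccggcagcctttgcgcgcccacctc
Mfn1: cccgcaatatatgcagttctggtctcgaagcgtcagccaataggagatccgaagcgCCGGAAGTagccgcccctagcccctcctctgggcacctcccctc

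The letters searched on both strands were GCGCATGC for NRF1, CCGGAAGT for GABP (also called NRF2), AAGATGGC for YY1 and CAAGGTCA for the estrogen-related receptors. In Opa1 an NRF1 match starts 59 bases before the start site and overlaps a match on the other strand. In Mfn1 a GABP match starts 44 bases before it, and the Dnm1l windows held none of the 4. The NRF1 letters were in 4 of 37 members (Opa1, Polrmt, Tfb2m and Timm13, 10.8%) and in the promoters of 3.05% of 27025 genes. The GABP letters were in 9 of 37 members (24.3%, and 4.31% of genes), which were Fis1, Mfn1, Phb2, Polg, Timm10, Timm10b, Timm23, Timm8a2 and Tomm70a. Those of YY1 were in Timm50 alone and those of the estrogen-related receptors in Timm8b alone (2.70% each), against 3.19% and 1.76% of genes. The members with a GABP match held genes that were highest in control 3-8, such as Fis1, and genes that were lowest in it, such as Mfn1. The 27025 genes were all genes with a RefSeq promoter, tested here or not. The promoter windows of the members had a median GC content of 59.0%, and those of all genes one of 52.7%. The part of this in the shares was not tested. A match is a run of letters in this window and was not tested for binding.

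The 9 tested TOM genes had a median difference of -0.13 over both controls, with 8 of 9 lower in the mean and none called. Tomm5 (ENSMUSG00000078713.8, chromosome 4 of GRCm38 from 45105208 to 45108114, minus strand), a small subunit of the channel complex, had the smallest unadjusted p of the class. Its normalized counts were 990.2 and 752 in controls 3-8 and 3-12 and 735 and 663 in muHuR-KO 1-9 and 3-9. Both muHuR-KO libraries lay below both controls, by -0.31 ± 0.28 (unadjusted p = 0.301, adjusted p = 0.9999, limma). The channel itself, Tomm40, had 1194 normalized counts in control 3-8, 758 in control 3-12, 757 in muHuR-KO 1-9 and 980.3 in 3-9, so its groups overlapped.

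The receptors of the TOM complex did not move together. Tomm20, which recognizes presequences, had 4340 normalized counts in control 3-8 and 3044, 3446 and 3256 in control 3-12, muHuR-KO 1-9 and muHuR-KO 3-9. Tomm70a, the receptor for carrier proteins, had 1997 in control 3-8 and 2710, 2495 and 2709 in the others, and was the single TOM gene that was lowest in control 3-8. The ratio of Tomm70a to Tomm20 was therefore 0.460 in control 3-8 and ran from 0.724 to 0.890 in the other libraries. Tomm22, the central receptor, followed Tomm20, with 1371 normalized counts in control 3-8 and 1003 to 1059.7 elsewhere. Tomm7 and Tomm40l were likewise highest in control 3-8, with 909 and 1282 normalized counts, against 629 to 749 and 871 to 990.2 in the rest. Tomm34, a cytosolic cochaperone of import, ran from 493 to 609, and Tomm6, another small subunit, differed most between the muHuR-KO libraries themselves, with 1374 in 1-9 and 843 in 3-9.

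The 6 TIM23 genes had a median difference of -0.18 over both controls and of -0.38 from control 3-8, but of 0.00 from control 3-12. Timm50 (ENSMUSG00000003438.17, chromosome 7 of GRCm38 from 28305516 to 28312072, minus strand), the receptor of the TIM23 complex, had 839.8 normalized counts in control 3-8, 619.9 in control 3-12, 537 in muHuR-KO 1-9 and 644 in 3-9. Control 3-8 was highest, control 3-12 lay between the muHuR-KO libraries, and the groups overlapped. The difference was -0.30 ± 0.29 over both controls (unadjusted p = 0.334, adjusted p = 0.9999, limma). Timm23 had 6483 and 5167 normalized counts in the controls 3-8 and 3-12 and 4739 and 4978 in muHuR-KO 1-9 and 3-9, all of muHuR-KO below both controls by -0.25 ± 0.26 (adjusted p = 0.9999 from limma).

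Timm44, which ties the import motor to the channel, was the steadiest of all 38 members. Its normalized counts ran from 1787 to 1883, a 1.05-fold range, and its difference over both controls was 0.00 ± 0.25. Timm17a, the channel partner of Timm23, had 4166 normalized counts in control 3-8 and 3125 to 3339 in the rest, and its paralog Timm17b had 517 in control 3-8 and 343 to 412 in the rest. Timm21, which links TIM23 to the TOM complex, was lowest in control 3-8 with 547 normalized counts, against 645 to 701 elsewhere.

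Of the 7 tested genes of the TIM22 route, all 7 were higher in control 3-8 than the mean of the other libraries, and 6 had their highest value in it. Timm13 (ENSMUSG00000020219.7, chromosome 10 of GRCm38 from 80899450 to 80900969, minus strand), a small TIM chaperone of the intermembrane space, had the lowest difference of the 38 members over both controls. Its normalized counts were 793 and 614 in controls 3-8 and 3-12 and 483 and 617 in muHuR-KO 1-9 and 3-9. muHuR-KO 3-9 and control 3-12 were level, and the difference of -0.35 ± 0.29 was not called (unadjusted p = 0.256, adjusted p = 0.9999, limma). Timm8b, which pairs with Timm13, had 1690.3 normalized counts in control 3-8, 1168 in control 3-12, 1458 in muHuR-KO 1-9 and 1256 in 3-9. The ratio of Timm8b to Timm13 was 3.02 in muHuR-KO 1-9 and at most 2.13 in the other 3 libraries.

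Timm9 and Timm10 form the chaperone of the carrier route. Timm9 was level, from 287 to 313 normalized counts, and Timm10 had 749.95 and 657 in controls 3-8 and 3-12 and 603 and 519.6 in muHuR-KO 1-9 and 3-9. The difference of Timm10 was -0.33 ± 0.27 over both controls (adjusted p = 0.9999 from limma). Timm10b had 451 normalized counts in control 3-8, 263 in control 3-12, 302 in muHuR-KO 1-9 and 282 in 3-9, and the difference from control 3-8 was the largest decrease of the members, -0.63 ± 0.25, at an unadjusted p of 0.0325 (adjusted p = 0.180 from limma). Timm22, the channel of the carrier route, ran from 426 to 652, and Timm8a1 from 405 to 504, both highest in control 3-8.

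The cristae and prohibitin genes had a median difference of -0.26 over both controls, with 4 of 4 lower in the mean. Immt (ENSMUSG00000052337.15, chromosome 6 of GRCm38 from 71831331 to 71877388, plus strand) encodes mitofilin, the core of the complex that forms cristae junctions. It had 9750.35 normalized counts in control 3-8, 10066 in control 3-12, 7869 in muHuR-KO 1-9 and 8289 in 3-9. It was the class member with the clearest split, since each pair lay close together and the pairs did not overlap. The difference was -0.29 ± 0.25 over both controls, -0.27 ± 0.22 from control 3-8 and -0.32 ± 0.22 from control 3-12, and none was called (adjusted p = 0.9999, 0.479 and 0.9998 from limma). Chchd3, a partner of mitofilin, did not share this split, with 8685 and 8335 normalized counts in controls 3-8 and 3-12 and 8779 and 6958 in muHuR-KO 1-9 and 3-9.

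Phb and Phb2 form the prohibitin ring of the inner membrane. Phb had 3690.2 and 2748 normalized counts in controls 3-8 and 3-12 and 2339 and 2962 in muHuR-KO 1-9 and 3-9, so its groups overlapped. Phb2 had 4851 in control 3-8 and 3388, 3419 and 3414 in the other 3 libraries, which were nearly equal. Its difference was -0.51 from control 3-8 (adjusted p = 0.192 from limma) and 0.01 from control 3-12. The ratio of Phb to Phb2 stayed between 0.684 and 0.868.

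Both matrix proteases were highest in control 3-8. Clpp (ENSMUSG00000002660.8, chromosome 17 of GRCm38 from 56990305 to 56996188, plus strand), the proteolytic subunit of the ClpXP protease, had 813 and 693 normalized counts in controls 3-8 and 3-12 and 647 and 559 in muHuR-KO 1-9 and 3-9. Both muHuR-KO libraries lay below both controls by -0.32 ± 0.27 (unadjusted p = 0.267, adjusted p = 0.9999, limma). Lonp1, which degrades oxidized matrix proteins, had 3403 and 2612 in the controls and 2275 and 2835 in muHuR-KO, in the same order, and its groups overlapped.

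Among the genes of mitochondrial DNA, Polrmt (ENSMUSG00000020329.12, chromosome 10 of GRCm38 from 79736123 to 79746581, minus strand), the mitochondrial RNA polymerase, had the smallest unadjusted p. It had 801 and 660.4 normalized counts in controls 3-8 and 3-12 and 529 and 636 in muHuR-KO 1-9 and 3-9. The groups did not overlap, and the difference was -0.33 ± 0.27 over both controls (unadjusted p = 0.270, adjusted p = 0.9999, limma). Polg, the catalytic subunit of the DNA polymerase, ran from 648 in muHuR-KO 1-9 to 912 in control 3-8. Tfb2m, the transcription initiation factor that works with Polrmt, had 1081 normalized counts in control 3-8 and 1567, 1362 and 1455 in control 3-12, muHuR-KO 1-9 and muHuR-KO 3-9. It was thus lowest in control 3-8 where Polrmt was highest. Tfb1m ran from 149 to 163.

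Set side by side, the median member differed from control 3-8 by -0.37 and from control 3-12 by -0.03, where the medians over all tested genes were -0.04 and -0.03. Against control 3-8, 30 members were lower and 8 higher, and against control 3-12, 21 were lower and 17 higher. Both comparisons use the same muHuR-KO libraries. Of the fusion genes, Mfn1 and Opa1 were higher against control 3-8 (0.37 and 0.84) and lower against control 3-12 (-0.38 and -0.49). Mfn2 was lower against both controls (-0.48 and -0.20). The medians of this class, 0.37 and -0.38, are the values of Mfn1. The mitochondrial import genes had class medians of -0.37 (TOM), -0.38 (TIM23) and -0.42 (TIM22 and small TIM) against control 3-8, and of 0.07, 0.00 and 0.08 against control 3-12. A lower median of the import genes in muHuR-KO was therefore seen against 1 of the 2 controls, with 0 of them called. With 2 libraries against 2, an exact two-sided permutation test of a single value cannot give a p below 0.333.

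**Figure D4:**
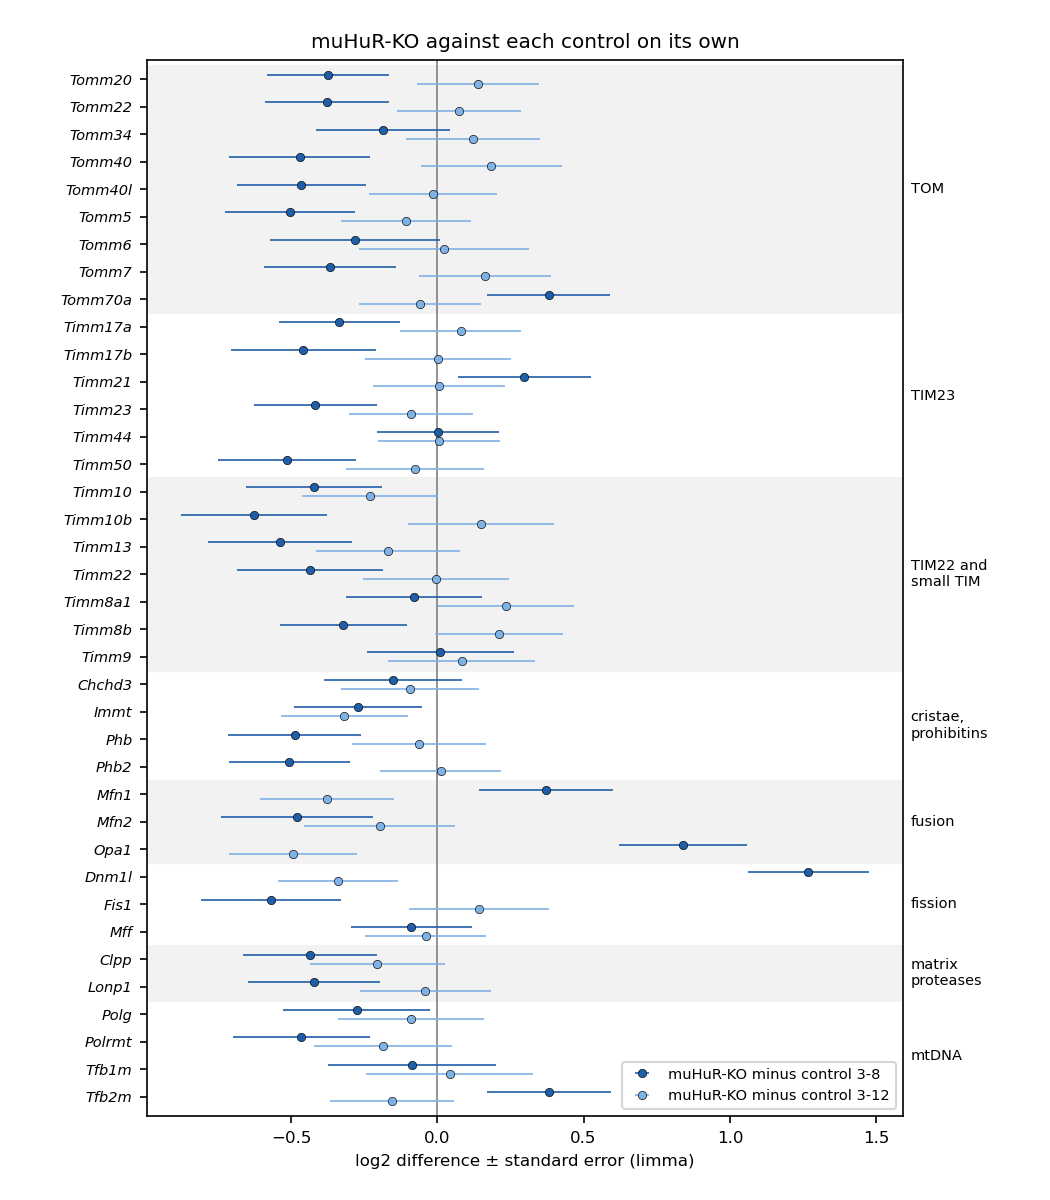
Log2 difference of muHuR-KO from control 3-8 (dark blue) and from control 3-12 (light blue) for each of the 38 tested members, with the standard error from limma as bars. Most members lie to the left of 0 against control 3-8, with a median of -0.37, and around 0 against control 3-12, with a median of -0.03. Mfn1, Opa1, Dnm1l, Tomm70a and Tfb2m lie to the right of 0 against control 3-8 and to the left against control 3-12. Others, such as Timm10b and Fis1, lie on opposite sides of 0 the other way round.

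How far control 3-8 departed from the rest varied with the base composition of transcripts. The GC content of the longest transcript of the members ran from 37.3% for Mff to 60.5% for Polrmt, with a median of 49.4% (49.8% over all tested genes). Across the 38 members, GC content and the log2 difference of control 3-8 had a Pearson r of 0.55, and across 13195 tested genes one of 0.59. These are descriptions across genes of the same 4 libraries, which are not independent points. Among the 11 members under 45% GC, the median difference was 0.02, where the 3330 genes in that range had -0.70. Among the 10 members from 45 to 50% it was 0.40 (genes -0.07), among the 9 from 50 to 55% it was 0.46 (genes 0.21) and among the 8 above 55% it was 0.41 (genes 0.33). Dnm1l at 40.9% and Opa1 at 43.5% GC lay below the median of their range, whereas Mff, Immt and Timm17a, at 37.3, 39.8 and 43.2%, lay well above it.

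**Figure D5:**
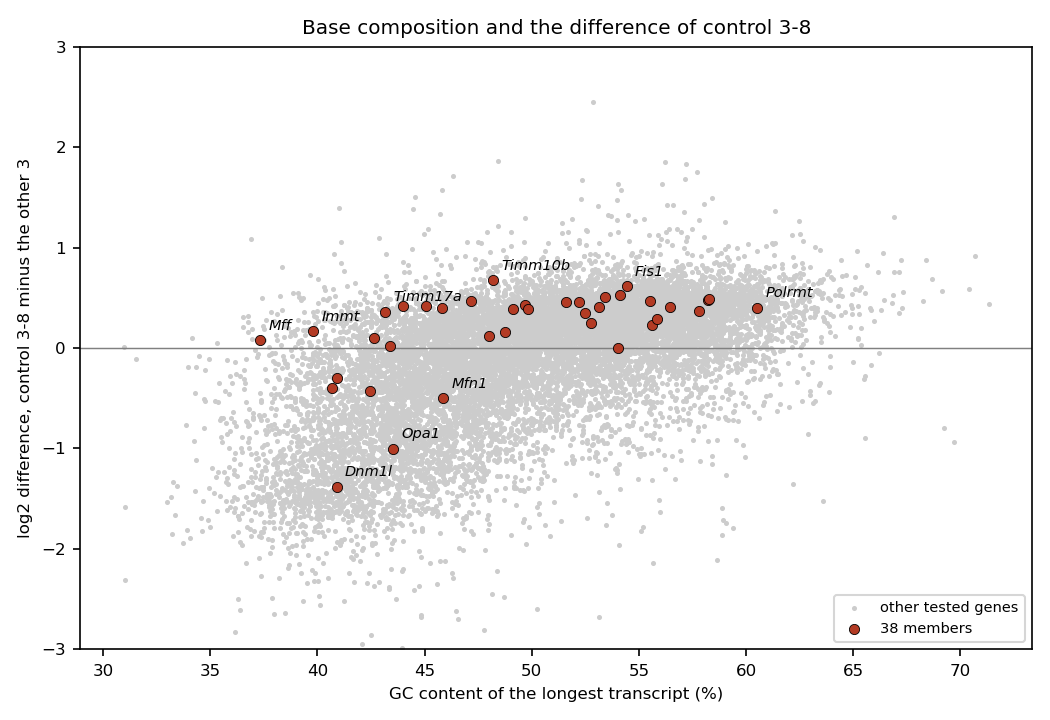
Log2 difference of control 3-8 from the mean of the other 3 libraries against the GC content of the longest transcript, for 13189 genes within 3 log2 units (6 lie beyond the axis). Members (red) follow the grey cloud of genes at high GC content and lie above most of it under 45%, except Dnm1l and Opa1.

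After the correction for GC content, 5 of 38 members were called lower in muHuR-KO than in control 3-8 and 0 higher, where 2.61% of 13195 genes were called lower and 6.41% were called in either direction. The same 5 were called higher in control 3-8 than in the other 3 libraries and 0 lower, where 2.08% of genes were called higher and 4.68% in either direction. They were Mff, Immt, Timm17a, Tomm7 and Tomm20, with a GC content from 37.3 to 45.1%. The corrected difference from control 3-8 was -1.10 ± 0.24 for Mff and -1.13 ± 0.25 for Immt, and it ran from -0.74 to -0.89 for the other 3. The p-values of the corrected fit against each control on its own are those of a normal distribution, as if the variance were known. Those of the corrected fit of control 3-8 against the other 3 libraries are not. The uncorrected fit against control 3-8 had 1 residual and 8.344 prior degrees of freedom. Calls against control 3-8 with and without the correction are therefore not on the same footing. Before the correction none of the 5 was called against control 3-8. Against control 3-12 the corrected differences of these 5 ran from -0.20 to 0.24, and 0 members were called, where 0.637% of genes were. Mff is nearly level in the deposited values, so its corrected difference comes from the expected level of a gene of its composition. Across the members, the Pearson r of GC content and the difference of control 3-8 went from 0.55 to -0.41 with the correction. Over all tested genes it went to 0.002. The correction thus reversed the trend of the members, and the part of GC content in the library difference was not tested further.

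Other genes of these pathways were looked up from lists of import, dynamics and cristae, protease and mitochondrial DNA genes, of which 72 were tested. Over both controls and against control 3-12, 0 of the 72 were called. Against control 3-8, 4 of 72 were called higher and 0 lower, where 9.69% and 0.128% of all tested genes were. In control 3-8, 6 of 72 were called lower than in the other libraries, where 12.4% of all tested genes were. By list, 1 of 24 import genes, 1 of 20 dynamics and cristae genes, 0 of 6 protease genes and 2 of 22 mitochondrial DNA genes were called higher against control 3-8. Yme1l1, the protease that cuts Opa1, had 916 normalized counts in control 3-8, 2520.1 in control 3-12, 2253 in muHuR-KO 1-9 and 2566 in 3-9. Its difference was 1.39 ± 0.21 from control 3-8 (adjusted p = 0.00852 from limma) and -0.07 ± 0.21 from control 3-12. Rrm2b, a ribonucleotide reductase subunit that supplies precursors for mitochondrial DNA, had 272, 1023, 649 and 689.7 in the same order, with a difference of 1.29 ± 0.23 from control 3-8 (adjusted p = 0.00920 from limma) and of -0.61 ± 0.23 from control 3-12. Mtx3, a metaxin of the outer membrane, and Pnpt1, a polynucleotide phosphorylase, were called higher against control 3-8 by 1.32 and 0.88. After the GC correction all 4 calls were lost, with differences of 0.42 for Yme1l1, 0.41 for Rrm2b, 0.68 for Mtx3 and 0.00 for Pnpt1 (adjusted p from 0.0931 to 0.997 from limma). The corrected fit instead called 4 of the 72 lower than control 3-8, where 2.61% of all genes were, and 0 higher. They were Immp1l (-1.28), Dnajc19 (-1.16), Pmpcb (-0.85) and Apool (-0.77). Clpx, the unfoldase partner of Clpp, and Mterfd3 had uncorrected differences of 0.82 each from control 3-8, which were not called, and both were among the 6 genes called lower in control 3-8 than in the other libraries (adjusted p = 0.0204 and 0.0458 from limma). Hspd1 and Mtx1 had differences of 0.56 and -0.64 from control 3-8 and were called in no comparison. Spg7, a subunit of a protease of the inner membrane, had the smallest unadjusted p of the 72 over both controls and was named after its values were seen. It had 1480.4 and 1823 normalized counts in controls 3-8 and 3-12 and 1028 and 1194 in muHuR-KO 1-9 and 3-9. Both muHuR-KO libraries lay below both controls, by -0.57 ± 0.27 (unadjusted p = 0.0672, adjusted p = 0.9999, limma). Against control 3-12 the difference of Spg7 was -0.72 ± 0.22, and that of Trak2, an adaptor of mitochondrial transport also named after its values were seen, was -0.73 ± 0.22 (adjusted p = 0.831 for both from limma).

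Of the 9 regulators of mitochondrial biogenesis, 1 was called higher against control 3-8, where 9.69% of all tested genes were, and 0 were called over both controls or against control 3-12. Gabpa, the DNA-binding subunit of GABP, had 687 normalized counts in control 3-8, 1764 in control 3-12 and 1560.3 and 1567 in muHuR-KO 1-9 and 3-9. It was called higher against control 3-8 (1.18 ± 0.21, adjusted p = 0.00945 from limma) and had a difference of -0.17 ± 0.21 from control 3-12. After the GC correction its difference from control 3-8 was 0.46 ± 0.24 (adjusted p = 0.305 from limma), and the call was lost. Ppargc1a, which encodes the coactivator PGC-1α, had 1563 and 2695 in controls 3-8 and 3-12 and 4126 and 2426 in muHuR-KO 1-9 and 3-9, so the groups overlapped. Its difference was 1.02 ± 0.30 from control 3-8 (adjusted p = 0.0666 from limma) and 0.23 ± 0.30 from control 3-12. After the GC correction the differences of Ppargc1a were 0.31 ± 0.24 from control 3-8 and 0.33 ± 0.24 from control 3-12. Tfam, which packs mitochondrial DNA, had a difference of 0.26 ± 0.28 over both controls, and Nrf1 one of 0.02 ± 0.31. The medians of the 9 regulators were 0.20 against control 3-8 and -0.07 against control 3-12.

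Some members share sequence with other genes. Reads of 11 members could be split with annotated pseudogenes (at least 90% identity over at least 200 bases), among them Tomm20 with 10 copies, Timm23 and Phb with 5 each and Dnm1l with 1 at 93.9% identity. Exons of 17 members overlap another gene, such as Tomm40l with Nr1i3 and Polg with Fanci on the opposite strand. The strand setting of the counting is not given in the sources used here, so such reads may not be told apart. Opa1, Mfn1 and Mfn2 have neither.

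Fiber type and cell type markers also differed between the libraries, and their part in the results above was not tested. The 8 type I fiber genes summed to 1853223 and 1189656 normalized counts in controls 3-8 and 3-12 and to 1175450 and 1308596 in muHuR-KO 1-9 and 3-9. Myh1, the type IIX myosin, had 54545 in control 3-8, 229802 in control 3-12 and 152186 and 158075 in muHuR-KO. Dnm1l, Opa1, Mfn1, Tomm70a and Tfb2m also stood in this order, and the share of all tested genes that did so was not counted. Myh2, the type IIA myosin, had 292760 in control 3-8 and 352776 to 470989 in the rest, and the 3 type IIB genes ran from 10047 in control 3-12 to 38392 in control 3-8. muHuR-KO 1-9 held the lowest value of the 4 libraries in 16 of 38 members (42.1%, and 24.3% of all tested genes). In it the summed markers of fibroblasts, tendon and macrophages were highest, and those of Schwann cells were not. The 7 fibroblast genes summed to 73265 there and to 39219, 43932 and 44001 in control 3-8, control 3-12 and muHuR-KO 3-9, the 6 tendon genes to 15131 against 7841 to 9197, and the 6 macrophage genes to 1507 against 899 to 914. The 5 Schwann cell genes summed to 8118 and 4599 in controls 3-8 and 3-12 and to 5527 and 8355 in muHuR-KO 1-9 and 3-9. The 6 endothelial genes ran from 14730 to 20896, the 6 adipocyte genes from 8821 to 11994 and the 3 erythroid genes from 132 to 288, with Hba-a1 at 0 in all libraries. The 10 long RNAs of the nucleus summed to 44559 and 64683 in the controls and to 104918 and 103704 in muHuR-KO. The median of the list did not share this split. Over the 9 tested RNAs the median difference of muHuR-KO was 1.21 from control 3-8 and 0.03 from control 3-12.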

How the data were processed

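mRNA from the soleus of 2 muHuR-KO and 2 control mice was sequenced. Per the submitters' processing notes, the authors used TopHat2 2.0.10 on mm10 (GRCm38) and HTSeq 0.6.1. They deposited a signal, the count of each gene normalized by DESeq2 size factors. The DESeq2 version, annotation and strand setting are not given in the sources used here. The deposited mean, log2 fold changes, standard errors, scores and p-values of the authors' own comparison were not used.

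Whole reads were recovered in each library (100% of values whole within 0.01). limma 3.58.1 (R 4.3.3, eBayes with a trend) was fitted on log2(normalized count + 1) for 13287 genes with a mean of at least 10, with Benjamini-Hochberg adjustment over all of them. The fits with a lone control have 1 residual degree of freedom. In simulated counts they recovered known changes, and called unchanged genes more often than the threshold allows, most of all against control 3-12. The simulation gave every gene the same dispersion, with or without a trend along GC content in control 3-8. The spread between the libraries used here was not simulated, so the recovery does not carry over to them. Full statistics are given for members called in any comparison and for the member of smallest unadjusted p over both controls in each class; other members singled out, Smcr7l among them, were chosen after their values were seen. Of the other pathway genes, the 8 of smallest unadjusted p over both controls or against control 3-8 were named by rule. Settings varied in turn were the pseudocount (0.5 or 5), the filter (none, or a mean of 50 or more), TMM scaling, the tool (on recovered reads, edgeR 4.0.16 or DESeq2 1.42.0), eBayes without a trend, loess corrections (span 0.4) for GC content (known for 99.3% of genes) and exon length, and leaving out each library. The members, lists and tests were chosen with earlier results of these data known. Pseudogenes were matched with BLAST+ 2.17.0. Other software was pandas 2.3.3 and matplotlib 3.10.9 under Python 3.11.15. The lists were other import, dynamics and cristae, protease and mitochondrial DNA genes, biogenesis regulators, nuclear long RNAs and markers of muscle, fiber types and other cells.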

Additional observations from a re-analysis of the deposited data

How the results depend on the processing

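Each group holds 2 libraries and the controls differ in base composition, which limits every comparison. No paired analysis was possible because the groups share no mouse numbers. The number before the hyphen, 3, is common to both controls and muHuR-KO 3-9, and its meaning is not given. Against control 3-8, 2 members were called, 0 without the filter on low values, without a variance trend or with the length correction, and 5 with the GC correction. In the main fit 9.69% of all tested genes were called higher and 0.128% lower, and with the GC correction 6.41% were called in either direction. Shares of all genes at the other settings are not given here. The calls of Dnm1l and Opa1 had adjusted p from 0.000121 to 0.273 and from 0.0222 to 0.513 over these alternatives (limma, edgeR or DESeq2). Over both controls, 0 members and 0% of all tested genes were called. Without control 3-12 the difference was 1.27 for Dnm1l and 0.84 for Opa1. The members' median over both controls was -0.15, and from -0.37 to -0.027 with a library left out. Without control 3-8, Dnm1l (-0.34) and Opa1 (-0.49) changed direction over both controls, and Opa1 did so with the GC correction (-0.044).

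The median against control 3-8 (-0.37) was -0.32 with TMM factors, edgeR or the GC correction, -0.28 with the length correction and from -0.37 to -0.32 with a library left out. That against control 3-12 (-0.03) was 0.017 with TMM factors, 0.022 with edgeR and from -0.079 to 0.059 with a library left out. For control 3-8 against the others, the median (0.38) was 0.34 with TMM factors or edgeR, 0.33 with the GC correction and 0.22 with the length correction, and 2 called members became 0 without the filter, 1 without a variance trend and 5 with the GC correction. In the main fit 12.4% of all tested genes were called lower in control 3-8 and 0.354% higher, and with the GC correction 4.68% were called in either direction. Calls with another library left out, an alternative chosen after seeing the data, are not given here. The causes were not tested.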
